A study of Mus musculus with 4 samples.

Results

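Class-switched B cells were taken from the B cell receptor (BCR) libraries of mouse peritoneal immune cells as the cell barcodes that carried exactly 1 immunoglobulin heavy contig and 1 light contig, with the heavy contig joined to a constant gene for IgG (IGHG1, IGHG2B, IGHG2C or IGHG3) or for IgA (IGHA). A contig is a receptor transcript assembled from the reads of 1 barcode. The rule was met by 296 of 9761 barcodes with 1 heavy and 1 light contig, of which 54 came from the HFD library and 242 from the CD library. HFD stands for wild-type mice fed a high-fat diet and CD for wild-type mice fed chow, in each case from 4 weeks of age for 3 months, per the series design. The labels are not uniform on this point, since the treatment text of the chow samples also names high-fat feeding. Cells were recovered by washing out the peritoneal cavity and were sorted for CD45, a surface protein of leukocytes. Each diet had 1 expression library and 1 receptor library, and the number of mice behind each is not given, so differences between diets are reported as values without a test.

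B cells leave the bone marrow with IgM and IgD receptors. Class switch recombination replaces the IgM constant region by one for IgG, IgA or IgE while the variable (V) region stays the same. V regions can also gain point mutations during an immune response, in a process called somatic hypermutation. The peritoneal cavity is rich in B1 cells, self-renewing B cells that mostly keep IgM, often with unmutated receptors such as the pairs IGHV11-2 with IGKV14-126 and IGHV12-3 with IGKV4-91 that bind phosphatidylcholine (PtC). The cavity also holds conventional B2 cells, and memory B cells that have switched class after an immune response.

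Barcodes with an IGHM contig were the reference for every comparison of classes, 3075 in HFD and 6088 in CD. Barcodes formed a clonotype when both chains agreed in V gene, in J gene and in every base of CDR3, the stretch across the V(D)J junction. A lineage allowed CDR3s of equal length to differ by up to 10% of their bases. The HFD matrix held 6897 barcodes with a median of 6298 unique molecular identifiers (UMIs, counts of single RNA molecules), and the CD matrix held 13227 barcodes with a median of 4416. Barcode sequences recurred between diets for 8 receptor barcodes and 30 matrix barcodes, none of which was a switched barcode.

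The sequences below show the range of switched receptors, all on chromosome 12, written 5′ to 3′ from the deposited contigs. The largest strongly mutated lineage held 7 IGHG2B barcodes of CD with IGHV14-3 and IGKV14-111. In its heavy CDR3, capitals mark the base that separates the second of its clonotypes from the first.
CDR3 in 4 barcodes: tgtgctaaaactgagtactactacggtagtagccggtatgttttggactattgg
CDR3 in 3 barcodes: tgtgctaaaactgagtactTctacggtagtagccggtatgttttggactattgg
Between CDR1 and CDR2, the V region of a member with 15 differences over the whole V region is set below the germline proxy of IGHV14-3, the sequence most frequent among IgM and IgD barcodes. Capitals mark the bases that differ.
IGHV14-3 proxy: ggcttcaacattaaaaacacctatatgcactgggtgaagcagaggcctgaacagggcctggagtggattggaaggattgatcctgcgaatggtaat
IGHV14-3 IGHG2B: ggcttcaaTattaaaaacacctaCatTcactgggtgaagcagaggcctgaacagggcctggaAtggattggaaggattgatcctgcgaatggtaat
The same stretch of an IGHG2B barcode from the IGHV1-52 and IGKV1-110 lineage of CD, with 16 differences over the whole V region, is set below its own proxy.
IGHV1-52 proxy: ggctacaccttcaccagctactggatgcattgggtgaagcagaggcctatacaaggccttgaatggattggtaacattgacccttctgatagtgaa
IGHV1-52 IGHG2B: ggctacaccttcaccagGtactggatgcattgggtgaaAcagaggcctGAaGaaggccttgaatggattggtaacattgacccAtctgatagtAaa
At the other end stood receptors without any difference from the proxy, of which the heavy CDR3s of a 5-barcode IGHG1 clonotype with IGHV1-26 and IGKV6-15 and of a 4-barcode IGHG3 clonotype with IGHV5-4 and IGKV1-117, both from CD, are shown.
IGHV1-26 IGHG1: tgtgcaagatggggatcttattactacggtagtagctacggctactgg
IGHV5-4 IGHG3: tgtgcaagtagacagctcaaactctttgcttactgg

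Switched barcodes made up a small share of the receptor barcodes, and the share was lower in HFD. They were 1.67% of barcodes in HFD (exact 95% binomial interval 1.26 to 2.18%) and 3.70% in CD (3.26 to 4.19%), a difference of -2.03 percentage points (Newcombe interval -2.65 to -1.36). These intervals cover counting error only, because each diet is 1 library. Counted once per clonotype, the shares were 2.13% in HFD and 4.44% in CD. With heavy contigs of at least 5 UMIs they were 1.41% in HFD and 2.78% in CD.

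IgG made up nearly all of the switched barcodes, led by IGHG2B in HFD and by IGHG2B and IGHG3 together in CD. IGHG2B, the constant gene of IgG2b, was carried by 28 barcodes in HFD (51.9%) and 90 in CD (37.2%), a difference of 14.7 points with an interval of 0.239 to 28.7. IGHG3, the constant gene of the IgG3 antibodies often made against carbohydrates, was carried by 10 barcodes in HFD (18.5%) and 89 in CD (36.8%), a difference of -18.3 points (-28.5 to -4.63). IGHG1 was carried by 7 barcodes in HFD (13.0%) and 33 in CD (13.6%). IGHG2C was carried by 5 barcodes in HFD (9.26%) and 8 in CD (3.31%), with an interval of the difference of -0.124 to 16.7 points. With heavy contigs of at least 5 UMIs, IGHG2C was 11.9% in HFD and 1.89% in CD, a difference of 10.02 points (2.44 to 23.2). IGHA, for IgA, was carried by 4 barcodes in HFD (7.41%) and 22 in CD (9.09%). Counted once per clonotype, the IGHG3 difference was -17.2 points (-28.3 to -2.38), while that of IGHG2B, 12.6 points, had an interval that included 0 (-3.11 to 28.0).

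**Figure D1:**
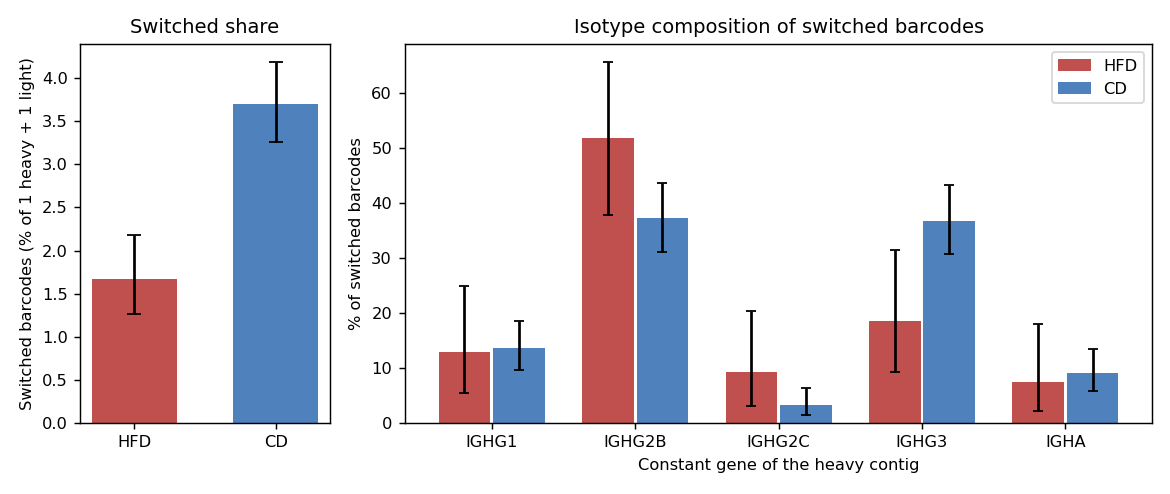
Left, switched barcodes as a percentage of barcodes with 1 heavy and 1 light contig in the HFD and CD receptor libraries. Right, percentage of switched barcodes with each constant gene; bars are shares, error bars are exact 95% binomial intervals, and IGHG3 stands at 18.5% in HFD and 36.8% in CD.

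The constant gene in the expression data usually matched the contig. Among switched barcodes with any heavy constant UMI, the contig's own gene had the most UMIs in 48 of 53 barcodes in HFD (90.6%) and 150 of 189 in CD (79.4%). It tied with another in 1 in HFD and 22 in CD, and Ighm led in 2 in HFD and 10 in CD. The 3 marker genes were present in switched barcodes. Ighg3 reached 314 CPM (UMIs per 1000000 UMIs, summed over barcodes) in HFD switched barcodes and 496 CPM in CD switched barcodes, against 14.2 and 12.4 CPM in HFD and CD IGHM barcodes. Ighg2b reached 707 and 485 CPM in switched barcodes of HFD and CD, against 1.22 and 5.79 CPM in IGHM barcodes. Igha reached 130 and 195 CPM in switched barcodes of HFD and CD, against 10.1 and 14.7 CPM in IGHM barcodes. The IgM gene Ighm was lower, at 181 and 184 CPM in switched barcodes of HFD and CD and 2471 and 1965 CPM in IGHM barcodes. In the IGHG2C barcodes of CD, Ighg2c led alone in 1 of 8. Ighg2b and Ighg2c are close copies of each other, so their split is uncertain.

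Switched cells carried less receptor RNA per barcode than IgM cells, and a smaller share of them lay in clonotypes of at least 2 barcodes. Clone sizes depend on the number of barcodes sampled, 54 switched and 3075 IGHM in HFD and 242 and 6088 in CD. They were not compared at equal numbers. The median heavy contig had 8 UMIs in HFD and 6 in CD among switched barcodes, against 17 in HFD and 13 in CD among IGHM barcodes. Clonotypes of at least 2 barcodes held 29.6% of switched barcodes in HFD and 40.1% in CD, against 47.5% and 56.7% of IGHM barcodes. The largest switched clonotype had 2 barcodes in HFD and 6 in CD, while the largest IGHM clonotype had 87 in HFD and 208 in CD. Without PtC-type receptors, the largest IGHM clonotype had 41 barcodes in HFD and 32 in CD, and clonotypes of at least 2 held 37.96% and 51.7% of IGHM barcodes. None of the switched barcodes had a PtC-type receptor pair, which 520 IGHM barcodes in HFD and 648 in CD carried. The 0 of 54 switched barcodes in HFD allows a share of up to 6.60%, and the 0 of 242 in CD a share of up to 1.51%, by exact intervals.

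V gene use differed between switched and IgM barcodes at some genes, which are named here without a set rule. The IGHM shares are by barcode, so large IGHM clones weigh in them. IGHV1-64 was used by 9.26% of switched barcodes in HFD and 8.26% in CD, against 2.31% and 3.02% of IGHM barcodes, and these switched barcodes came from 4 clonotypes in HFD and 15 in CD. IGKV14-111 was used by 7.41% of switched barcodes in HFD and 8.68% in CD, against 46 of 3075 (HFD) and 83 of 6088 (CD) IGHM barcodes, from 3 clonotypes in HFD and 14 in CD. Other genes also stood higher in both libraries, among them IGHV7-3, at 7.41% of switched barcodes in HFD and 5.37% in CD, against 1.56% and 2.46% of IGHM barcodes. In CD, IGHV4-1 was used by 4.13% of switched barcodes (9 clonotypes) and 1.23% of IGHM barcodes. IGHV14-3 in CD was used by 5.37% of switched barcodes and 1.07% of IGHM barcodes, with 7 clonotypes, 2 of them in the lineage printed above. In HFD, IGHV3-6 was seen in 3 switched barcodes from 2 clonotypes and in 0 of 3075 IGHM barcodes, which allows an IGHM share of up to 0.12%. The IGHV7 family held 13.0% of HFD switched barcodes and 2.47% of HFD IGHM barcodes, from 4 switched clonotypes. IGKV1-110 was used by 14.8% of HFD switched barcodes and 4.36% of HFD IGHM barcodes, but by 6.20% of CD switched barcodes and 6.21% of CD IGHM barcodes.

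Other receptor features lay closer together. Lambda light chains were used by 7.41% of switched barcodes in HFD and 14.0% in CD, against 10.8% and 12.3% of IGHM barcodes. The share of IGHJ1 by barcode was 20.4% in HFD and 14.5% in CD for switched barcodes, against 32.4% and 24.0% for IGHM barcodes. By clonotype it was 19.6% in HFD and 16.2% in CD for switched clonotypes, against 19.3% and 15.2% for IGHM clonotypes. The median heavy CDR3 per clonotype was 45 bases in HFD and 42 in CD for switched clonotypes, against 42 and 39 for IGHM clonotypes. IGHG3 clonotypes of CD had the shortest median among the CD IgG classes, 37.5 bases.

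Switched receptors were mutated far more often than IgM receptors. Differences were counted from the start of framework 1 to the end of framework 3 against the germline proxy, which existed for 86 heavy V genes. At least 1 heavy difference was found in 31 of 51 switched barcodes in HFD (60.8%, interval 46.1 to 74.2%) and 174 of 242 in CD (71.9%, 65.8 to 77.5%). Among IGHM barcodes the shares were 2.41% in HFD and 12.2% in CD. IGHD barcodes, carrying the IgD isotype of naive cells, had a difference in 0 of 91 in HFD, with an exact upper limit of 3.97%, and in 2 of 180 in CD. The mean number of heavy differences was 3.67 in HFD and 4.66 in CD for switched barcodes, against 0.0791 and 0.687 for IGHM barcodes. The light chain gave the same order, with a difference in 48.1% of switched barcodes in HFD and 61.6% in CD, against 1.92% and 9.89% of IGHM barcodes.

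**Figure D2:**
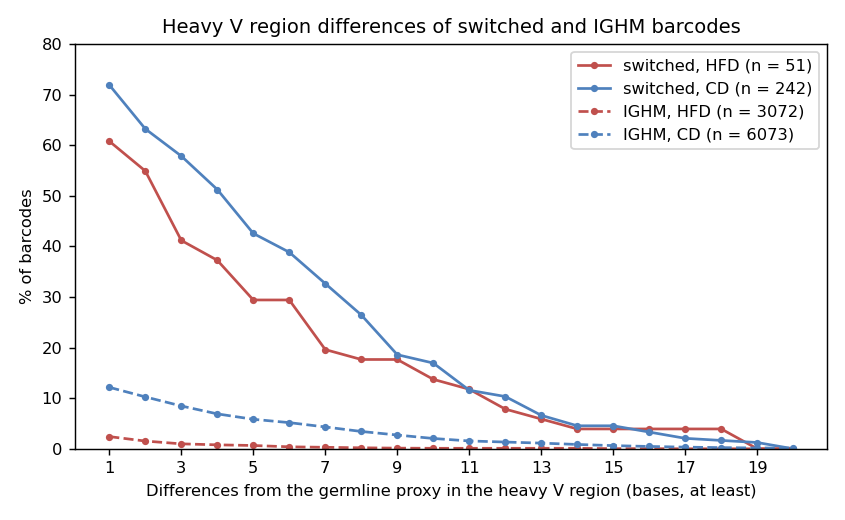
Percentage of barcodes (y axis) whose heavy V region differs from the germline proxy by at least the number of bases on the x axis. Solid lines are switched and dashed lines IGHM barcodes of HFD and CD; at 1 difference they stand at 60.8% and 71.9% for switched and at 2.41% and 12.2% for IGHM.

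All isotypes held both mutated and unmutated receptors. Heavy differences were present in 6 of 7 IGHG1, 12 of 26 IGHG2B, 2 of 4 IGHG2C, 9 of 10 IGHG3 and 2 of 4 IGHA barcodes in HFD. In CD the shares were 63.6% for IGHG1, 77.8% for IGHG2B, 87.5% for IGHG2C, 70.8% for IGHG3 and 59.1% for IGHA. The intervals overlap widely within each diet, so no order among the isotypes was read. Among switched barcodes the numbers of heavy and light differences went together across barcodes, with Spearman's rho of 0.725 over 49 barcodes in HFD and 0.712 over 242 in CD; barcodes of 1 clone share their differences. Neither chain differed in 34.7% of switched barcodes in HFD and 24.8% in CD.

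Differences were denser in CDR1 and CDR2 than in the frameworks and were frequent at hotspot motifs of somatic hypermutation. Each base and each distinct difference was counted once per lineage. Switched heavy chains had 2.72 differences per 100 bases of CDR1 and CDR2 and 1.17 per 100 bases of framework in HFD. In CD they had 3.09 and 1.58. IGHM heavy chains were also denser in CDR1 and CDR2, at 0.0691 against 0.0313 in HFD and 0.417 against 0.192 in CD. These hotspots were counted as the C of AAC, AGC, TAC or TGC and the G of GTT, GCT, GTA or GCA, the same motifs on the other strand. They held 43.4% of the switched differences in HFD (35.97 to 51.1%) and 40.5% in CD (37.1 to 43.9%), while 13.9% of the proxy bases in either diet were such positions. The IGHM shares at hotspots were similar, 42.0% in HFD and 39.3% in CD. Transitions were 59.4% of switched differences in HFD and 56.0% in CD. In CDR1 and CDR2 of switched lineages, 42 differences changed the amino acid and 6 were silent in HFD, and 167 and 39 did so in CD. In the frameworks 80 changed the amino acid and 47 were silent in HFD, and 407 and 237 did so in CD.

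Some switched clones were shared with IgM cells of the same diet. The clonotype of 4 of 54 switched barcodes in HFD (7.41%, 2.06 to 17.9%) and 16 of 242 in CD (6.61%, 3.83 to 10.5%) also held an IGHM barcode. At the lineage level the shares were 11.1% in HFD and 20.2% in CD. The clonotypes of the deposited tables gave 7.41% in HFD and 18.2% in CD, and the heavy chain alone gave 9.26% in HFD and 11.6% in CD, so the CD value depends on how a clone is defined. Of the CD lineages, 5 held at least 2 switched isotypes, and no switched clonotype was found in both diets. The next sequences are heavy CDR3s of lineages with switched and IgM members; capitals mark bases that differ from the most common IGHM sequence of that lineage. In the IGHV1-69 and IGKV10-94 lineage of CD, 3 IGHG3 barcodes stood beside 7 IGHM barcodes.
IGHG3, 2 barcodes, 8 heavy differences: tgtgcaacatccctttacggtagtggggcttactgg
IGHG3, 1 barcode, 1 heavy difference: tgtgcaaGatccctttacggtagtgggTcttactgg
IGHM, 3 barcodes, 7 to 10 heavy differences: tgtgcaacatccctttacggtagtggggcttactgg
IGHM, 1 barcode, 14 heavy differences: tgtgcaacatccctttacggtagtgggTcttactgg
IGHM, 1 barcode, 17 heavy differences: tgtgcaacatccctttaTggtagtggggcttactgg
IGHM, 2 barcodes, 14 and 19 heavy differences: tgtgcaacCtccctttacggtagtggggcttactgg
In this lineage the IgM receptors had 7 to 19 heavy differences and the IgG3 receptors 1 to 8. In the IGHV9-3 and IGLV2 lineage of CD the 3 IGHG3 barcodes had no difference from the proxy, and the 5 IGHM barcodes had 2 to 8.
IGHG3, 3 barcodes: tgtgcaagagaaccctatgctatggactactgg
IGHM, 2 barcodes, 2 heavy differences: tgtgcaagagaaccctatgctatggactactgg
IGHM, 1 barcode, 2 heavy differences: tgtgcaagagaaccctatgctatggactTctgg
IGHM, 1 barcode, 5 heavy differences: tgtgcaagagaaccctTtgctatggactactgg
IGHM, 1 barcode, 8 heavy differences: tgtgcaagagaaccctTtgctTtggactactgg
HFD had 2 clonotypes of this kind, and in each the IGHG2B and IGHM barcodes had identical heavy CDR3s. The IGHV7-3 and IGLV2 clonotype had 2 IGHG2B barcodes with 6 heavy differences and 2 IGHM barcodes with 5. The IGHV7-1 and IGKV7-33 clonotype, which pairs the V genes of the classical T15 antibody against phosphorylcholine, had 2 IGHG2B and 1 IGHM barcodes without a heavy difference, and no other switched or IGHM barcode of either diet had this pair.
IGHV7-3 IGHG2B and IGHM: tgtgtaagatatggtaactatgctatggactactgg
IGHV7-1 IGHG2B and IGHM: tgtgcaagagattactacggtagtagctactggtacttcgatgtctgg

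For expression, 53 of 54 switched barcodes of HFD and 196 of 242 of CD were found in the matrix of the same diet, against 2768 and 4964 IGHM barcodes after filtering. Counts were summed per class and library and tested with edgeR's quasi-likelihood test with the library as a block, with Benjamini-Hochberg adjustment over 5280 genes. Of these, 153 (2.9%) were higher and 262 (4.96%) were lower in switched barcodes at an adjusted p below 0.05, together 7.86%. The sums held 292868 UMIs in HFD and 934312 in CD for switched barcodes, and 19597003 and 27442269 for IGHM barcodes. Since only 2 libraries hold both classes, the fit has 1 residual degree of freedom per gene. Its p-values rest on how the class difference varied between these 2 libraries, with the estimate of spread shared over genes. They do not measure the spread between mice. Summed counts cannot separate a higher level in each cell from more cells that express the gene.

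Summed macrophage RNA differed between the classes. The summed level of the 15 macrophage markers was 1526 CPM in HFD and 3191 CPM in CD for switched barcodes, against 3582 and 5106 CPM for IGHM barcodes, and all 10 markers tested were lower in switched barcodes. The median per barcode was not lower, at 1538 CPM in HFD and 897 CPM in CD for switched and 1189 and 882 CPM for IGHM barcodes. Leaving out barcodes with over 1% macrophage or over 0.2% T and NK cell UMIs removed 2 of 53 switched barcodes in HFD and 13 of 196 in CD, and 108 and 362 IGHM barcodes. None of the 8 macrophage markers still tested then differed. The limit was set on the sum of the 15 macrophage markers themselves, so this follows in part from the filter. In this fit 132 genes (2.53%) were higher and 179 (3.43%) lower in switched barcodes, together 5.95%. The 15 T and NK markers were at 239 CPM in HFD and 202 CPM in CD for switched barcodes, against 112 and 150 CPM for IGHM barcodes, and 0 of the 4 tested passed, with a median log2 difference of 0.57. The log2 ratio of the sums was 1.09 in HFD (counting interval 0.73 to 1.44) and 0.44 in CD (0.22 to 0.65). Of the 15 markers, Cd4, Cd8a, Cd28, Il7r, Ncr1 and Klrb1c gave 0 UMIs in HFD switched barcodes, and Ncr1 and Klrb1c in CD switched barcodes. The part of T and NK cell RNA in the differences was not tested beyond leaving out those barcodes.

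The genes highest in switched over IgM barcodes included the receptor Fas and signalling adaptors. Fas, the death receptor that marks germinal-centre and activated B cells, reached 44.4 CPM in HFD and 42.8 CPM in CD in switched barcodes, against 4.08 and 5.76 CPM in IGHM barcodes, a log2 difference of 3.02 ± 0.55 (SE; edgeR adjusted p = 2.86e-06). IGHM barcodes with heavy differences had 21.3 CPM of Fas in HFD and 13.1 CPM in CD, and against them the log2 difference of switched barcodes was 1.504 (edgeR adjusted p = 0.000712). Scimp, an adaptor that couples MHC class II and Toll-like receptors to kinases, reached 109 CPM in HFD and 69.6 CPM in CD, against 10.1 and 14.5 CPM in IGHM barcodes, a log2 difference of 2.62 ± 0.27 (edgeR adjusted p = 5.49e-20). Sh2d6, which encodes an SH2-domain adaptor, reached 54.6 CPM in HFD and 40.7 CPM in CD, against 6.99 and 6.70 CPM in IGHM barcodes, a log2 difference of 2.66. Each of these sums was higher in switched than in IGHM barcodes of both libraries.

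A second tier rose by 1.04 to 1.55 on the log2 scale. Ccr6, the receptor for CCL20 carried by memory B cells, stood at 64.9 CPM in HFD and 56.7 CPM in CD in switched barcodes, against 22.5 and 17.6 CPM in IGHM barcodes (log2 1.55). Lmo2, a transcription cofactor of germinal-centre B cells, stood at 137 and 169 CPM in switched barcodes of HFD and CD, against 50.1 and 60.2 CPM in IGHM barcodes (log2 1.40). Itga4, the alpha chain of integrins that bind VCAM1, stood at 423 and 346 CPM in switched barcodes, against 159 and 163 CPM in IGHM barcodes (log2 1.12 ± 0.11; edgeR adjusted p = 3.08e-22). Also higher were Neil1 (1.40), a DNA glycosylase, Spn (1.38), which encodes CD43, St6galnac3 (1.33), a sialyltransferase, and Chchd10 (1.26), a mitochondrial protein. Irak3 (1.25), an inhibitor of Toll-like receptor signalling, Pxdc1 (1.25), Lax1 (1.09), an adaptor that restrains antigen receptor signalling, Pdss2 (1.08), of coenzyme Q synthesis, and Tnfrsf8 (1.04), which encodes CD30, completed the 15. All 15 were also higher at an adjusted p below 0.05 without the mixed barcodes. Against IGHM barcodes with heavy differences, Neil1, Irak3 and Pdss2 did not pass (0.90, 0.62 and 0.89; edgeR adjusted p = 0.112, 0.382 and 0.279), and against IGHM barcodes without PtC-type receptors Pdss2 did not pass (edgeR adjusted p = 0.0747). Some of the 15 were also high in unswitched barcodes. Chchd10 was at 140 and 192 CPM in switched barcodes of HFD and CD and at 174 and 152 CPM in IGHD barcodes. IGHD barcodes had 77.8 and 40.3 CPM of Ccr6 and 118 and 119 CPM of Lmo2, but 162 and 185 CPM of Itga4. Tnfrsf8 was at 68.3 and 43.9 CPM in switched and 55.0 and 49.9 CPM in PtC-type IGHM barcodes. Which of the 15 are particular to switched barcodes was not tested.

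The genes with the largest negative differences fell into those that held without mixed barcodes and those that did not. Zcwpw1, a reader of histone methylation and a member of the B1 marker list, was at 17.1 CPM in HFD and 8.56 CPM in CD in switched barcodes, against 102 and 78.5 CPM in IGHM barcodes (log2 -3.06 ± 0.29; edgeR adjusted p = 4.67e-23). Ahnak2 was at 3.41 and 7.49 CPM in switched barcodes of HFD and CD, against 82.0 and 39.0 CPM in IGHM barcodes (-3.01), from 1 and 7 UMIs in the switched sums. Agbl1 (-2.95, from 2 and 6 UMIs), Pou2af2 (-2.41, from 1 and 12) and Ms4a6c (-2.08, from 6 and 24) were also lower, and without mixed barcodes these 5 genes had differences of -3.30, -3.00, -2.96, -2.42 and -2.09. Retnla (-2.21), Lyz1 (-2.07) and Ccl6 (-1.94), which macrophages express strongly, were at -0.60, -0.08 and -0.50 without mixed barcodes, with edgeR adjusted p of 0.259, 0.942 and 0.198. Lyz1 has a near-identical copy, Lyz2, so its counts are uncertain. Fabp4, at 5 and 23 UMIs in the switched sums of HFD and CD, and Mgst1 (-1.98) were too low to be tested once those barcodes were left out.

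**Figure D3:**
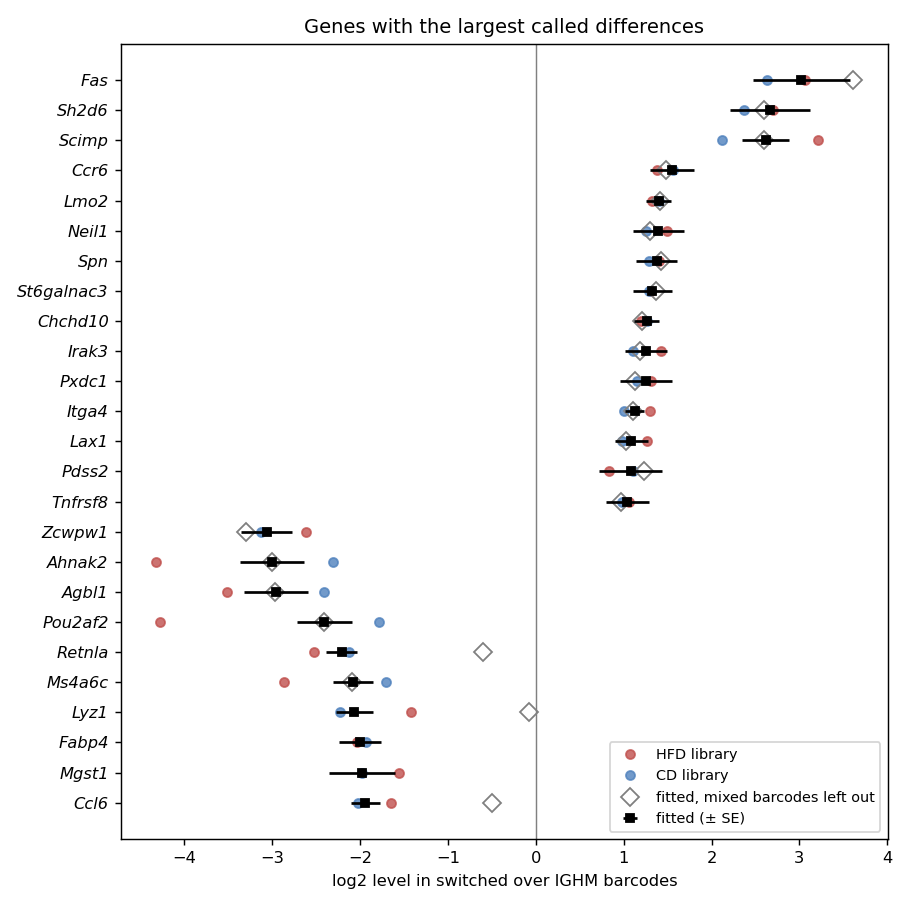
Log2 level in switched over IGHM barcodes for the 15 genes with the largest positive and the 10 with the largest negative called difference. Squares are the fitted values with SE, circles the HFD and CD libraries alone, and open diamonds the fit without mixed barcodes; Retnla, Lyz1 and Ccl6 move to between -0.60 and -0.08.

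The 5 lower genes that held were most abundant in PtC-type IgM cells. Zcwpw1 was at 279 CPM in HFD and 392 CPM in CD in PtC-type IGHM barcodes and at 3.11 and 11.9 CPM in IGHD barcodes. Ahnak2 was at 214 and 149 CPM in PtC-type IGHM barcodes of HFD and CD, and at 0 and 2.37 CPM in IGHD barcodes. Ms4a6c, a tetraspan membrane protein gene, was at 288 and 177 CPM in PtC-type barcodes and at 52.9 and 19.0 CPM in IGHD barcodes. Against IGHM barcodes without PtC-type receptors, 103 of 5314 genes (1.94%) were higher and 180 (3.39%) lower in switched barcodes, together 5.33%. In that fit the Zcwpw1 difference was -1.59 (edgeR adjusted p = 0.00273). In IGHM barcodes with at least 1 heavy V difference, Zcwpw1 stood at 10.7 CPM in HFD and 19.4 CPM in CD.

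Across the B1 marker list, 13 of 16 genes were tested, 1 was higher and 7 were lower, with a median log2 difference of -0.49. All genes tested had a median of 0.00, with 2.9% higher and 4.96% lower. The median of the B1 list was -0.55 in HFD alone and -0.22 in CD alone. S100a6, a calcium-binding protein and the most abundant member, was at 3534 CPM in HFD and 1948 CPM in CD in switched barcodes, against 4822 and 3089 CPM in IGHM barcodes (log2 -0.65). Cd9, a tetraspanin, was at 30.7 and 46.0 CPM in switched barcodes of HFD and CD, against 145 and 109 CPM in IGHM barcodes (-1.57). Tppp3 (-1.04), Plscr1 (-1.09), Ptpn22 (-0.62) and Lgals1 (-0.49) were also lower. Spn was the member that was higher, while Bhlhe41, a transcription factor that B1 cells depend on, had a difference of -0.01. Cd5, the surface marker of B1a cells, Ctla4 and Myo1d were below the filter.

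The summed B1 list stood between those of PtC-type IgM and IgD cells. It was 5166 CPM in HFD and 3398 CPM in CD in switched barcodes, 7193 and 4688 CPM in all IGHM barcodes, 10661 and 8146 CPM in PtC-type IGHM barcodes, and 1709 and 1912 CPM in IGHD barcodes. IGHM barcodes with heavy differences were at 6245 CPM in HFD and 3831 CPM in CD. Against those, 1 of 12 B1 markers tested was higher and 2 were lower, with a median of -0.23, where 57 of 5352 genes (1.07%) were higher and 126 (2.35%) lower, together 3.42%. Within the switched class, IgA barcodes had 7008 CPM in HFD (4 barcodes) and 5154 CPM in CD (21 barcodes), and IgG barcodes 5055 and 3180 CPM.

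**Figure D4:**
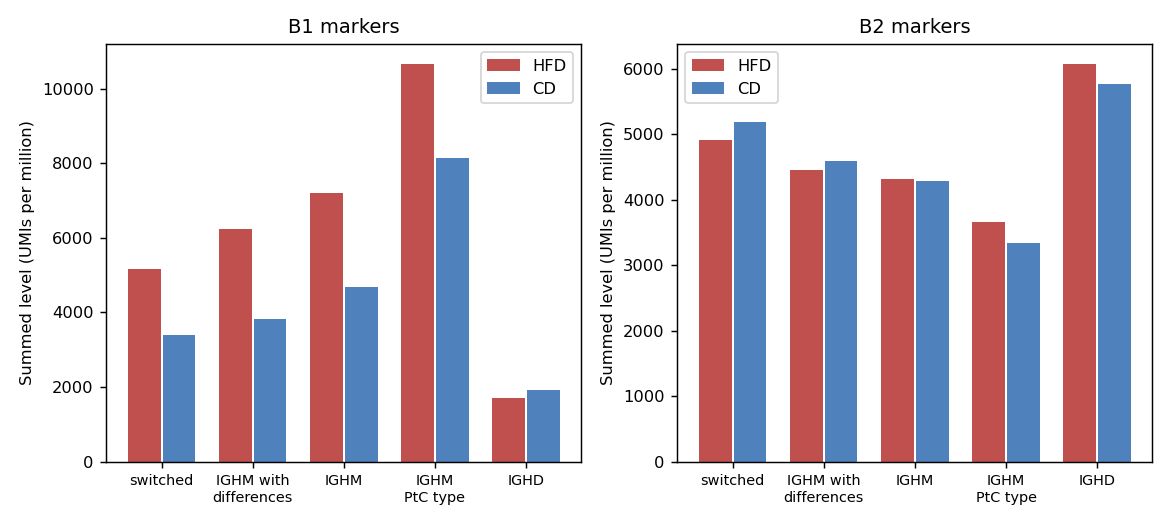
Summed level of the B1 (left) and B2 (right) marker lists, in CPM, for 5 receptor classes in HFD and CD; each bar is 1 library sum. Switched barcodes stand at 5166 and 3398 for B1 markers, between PtC-type IGHM and IGHD barcodes.

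Of the 12 B2 markers, 11 were tested, 3 were higher and 1 was lower, and the median was -0.02. This median was 0.01 in HFD alone and 0.06 in CD alone. The summed B2 list was at 4910 CPM in HFD and 5189 CPM in CD in switched barcodes, against 4310 and 4277 CPM in IGHM barcodes. In IGHD barcodes it was at 6072 and 5765 CPM. The shares over all genes tested were 2.9% higher and 4.96% lower. Ccr7, the receptor that guides lymphocytes to lymph nodes, was at 372 CPM in HFD and 513 CPM in CD in switched barcodes, against 190 and 257 CPM in IGHM barcodes (log2 0.91). Ltb, encoding lymphotoxin beta (0.50), and Klf2, a transcription factor of quiescent lymphocytes (0.28), were the others that were higher. Fcmr, the Fc receptor for IgM, was lower (-0.53). The naive and follicular markers Fcer2a (-0.10) and Bach2 (-0.02) did not pass. The sign of the list's median was positive, 0.20, against IGHM barcodes with heavy differences.

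Of 14 genes tied to memory B cells, 11 were tested, 4 were higher and none lower, with a median of 0.56. Over all genes tested, 2.9% were higher and 4.96% lower. Besides Ccr6 the higher members were the costimulatory gene Cd86 (0.91), the ligand gene Pdcd1lg2 (0.83), which encodes PD-L2, and the transcription factor Zbtb20 (0.58). Cd80, another memory marker, was at 17.1 CPM in HFD and 47.1 CPM in CD in switched barcodes, against 24.0 and 22.4 CPM in IGHM barcodes, and passed without mixed barcodes only (0.80). Nt5e, which encodes CD73, was below the filter, at 23.9 and 24.6 CPM in switched barcodes of HFD and CD and 4.29 and 7.54 CPM in IGHM barcodes. Against IGHM barcodes with heavy differences, 1 of the 12 members tested was higher and the median was 0.06.

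Of 12 germinal-centre genes only Fas passed the filter on low values. The summed list was at 106 CPM in HFD and 96.3 CPM in CD in switched barcodes, against 41.0 and 41.5 CPM in IGHM barcodes, and Fas was part of each sum. Bcl6, the master regulator of germinal-centre cells, was at 3.41 CPM in HFD and 8.56 CPM in CD in switched barcodes, against 17.8 and 16.4 CPM in IGHM barcodes. Basp1 was at 17.1 CPM in HFD and 21.4 CPM in CD in switched barcodes, against 0.765 and 1.68 CPM. The plasma cell list summed to 2155 CPM in HFD and 2787 CPM in CD in switched barcodes, against 3031 and 2833 CPM in IGHM barcodes. Medians per barcode had the opposite order, at 2096 and 1848 CPM in switched and 1920 and 1760.5 CPM in IGHM barcodes of HFD and CD. Single barcodes reached 4655 and 41943 CPM in the switched class and 111741 and 111270 CPM in the IGHM class. Of the 16 plasma cell genes, 9 were tested, none was higher, and Ssr4 and Slpi were lower, where 4.96% of all genes tested were lower. Without mixed barcodes Slpi was instead higher, by 0.57. Sdc1, the plasma cell marker CD138, gave 0 UMIs in the switched sums of both diets. In these sums 3 UMIs equal 10.2 CPM in HFD and 3.21 CPM in CD, so low values such as that of Bcl6 in HFD rest on very few UMIs. Mki67, the proliferation marker, gave 0 UMIs in HFD and was at 5.35 CPM in CD in switched barcodes, against 9.80 and 3.35 CPM in IGHM barcodes.

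The homing and adhesion list changed more broadly than the other lists of this paragraph. Of its 16 genes, 12 were tested, 5 were higher and 1 was lower, with a median of 0.36. Over all genes tested, 2.9% were higher and 4.96% lower. The log2 ratio of the list's sums was 0.60 in HFD and 0.46 in CD. Itga4, Ccr7, Ccr6, Cxcr3 and Gpr183 (0.47) were the higher members, and Ccr1 was lower. Gpr183 encodes the oxysterol receptor that positions B cells. Among receptors that steer switching, 10 of 16 were tested. Ifngr1, a chain of the interferon-gamma receptor, was at 184 CPM in HFD and 139 CPM in CD in switched barcodes, against 89.1 and 85.2 CPM in IGHM barcodes (0.74), and Tnfrsf13c, the BAFF receptor gene, was higher by 0.39. Il5ra, the interleukin-5 receptor gene of B1 cells, was lower (-0.90). Of 14 signalling genes, all tested, the inhibitory Fc receptor gene Fcgr2b (0.72) and Prkcb (0.39) were higher and the kinase gene Syk (-0.46) was lower. All 11 MHC class II genes were tested, and H2-Eb2 (1.02), H2-Ab1 (0.23) and H2-DMb2 (0.25) were higher. Without mixed barcodes Tnfrsf13c, H2-Ab1 and H2-DMb2 no longer passed, and Ccr1 was too low to be tested.

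Some activation, interferon and stress genes passed, where 2.9% of all genes tested were higher and 4.96% lower. Of 14 immediate early genes, 8 were tested. Cd69, an early activation marker that also holds cells in tissue, was higher (0.59), as was Dusp1 (0.48, and 1.29 without mixed barcodes), and Myc (-0.82) and Jun (-0.41) were lower, Jun not without mixed barcodes. Of 16 interferon response genes, 6 were tested, 1 was higher and Ly6a was lower (-0.33). Of 12 heat shock genes, 8 were tested and Hsp90ab1 was lower (-0.32). None of the 3 cell cycle genes tested, of 16, passed. Of 12 genes of atypical and age-associated B cells, 10 were tested, Fas and Cxcr3 were higher, and Itgam, Zeb2, Fcer1g and Apoe were lower, none of these 4 without mixed barcodes. B cell identity genes, such as Cd79a and Ms4a1, showed no member past the threshold among 10 (without mixed barcodes Cd79b was lower, at -0.25), and summed to 10735 CPM in HFD and 10868 CPM in CD in switched barcodes, against 10262 and 9972 CPM in IGHM barcodes.

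The isotypes differed in which barcodes held the leading genes, given here as values. Fas UMIs were found in 5 of 7 IGHG1 barcodes in HFD and 8 of 24 in CD, and in 2 of 10 IGHG3 barcodes in HFD and 3 of 67 in CD. Summed, Fas was at 120 CPM in HFD and 101 CPM in CD in IGHG1 barcodes, and at 36.1 and 17.1 CPM in IGHG3 barcodes. Sh2d6 UMIs were found in 10 of 24 IGHG1 and 0 of 67 IGHG3 barcodes of CD. These counts treat barcodes of 1 clone separately. In the CD receptor library, clonotypes of at least 2 barcodes held 42.4% of IGHG1 and 47.2% of IGHG3 barcodes. Median depth was 4802 UMIs in the IGHG1 and 3958 in the IGHG3 barcodes of CD. Thinned to 2000 UMIs per barcode, the expected share with a Fas UMI was 14.9% of 21 IGHG1 and 1.29% of 62 IGHG3 barcodes of CD. Among IGHM barcodes of CD, 2.86% had a Fas UMI (1.12% thinned) at a median of 4692 UMIs. Scimp was at 539 CPM in the 4 IGHA barcodes of HFD, each with at least 1 UMI, but at 48.4 CPM in the 21 IGHA barcodes of CD.

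Mutated and unmutated switched barcodes were also set side by side. Lmo2 was at 194 CPM in HFD and 188 CPM in CD in switched barcodes with heavy differences, against 50.7 and 104 CPM in those without. Sh2d6 was at 64.5 and 49.8 CPM in mutated switched barcodes of HFD and CD, against 50.7 and 9.48 CPM in unmutated ones. Scimp differed in direction between the libraries, with 99.8 CPM in HFD and 80.2 CPM in CD in mutated switched barcodes and 112 and 33.2 CPM in unmutated ones. The unmutated sums rest on 20 barcodes in HFD and 51 in CD.

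Within switched barcodes, HFD and CD were compared for 2957 genes, as ratios without a test. These had at least 50 UMIs in all, 30 CPM in the higher library and a UMI in at least 10% of its barcodes. Receptor, mitochondrial, ribosomal protein and sex-linked marker genes were not among them. By 1 log2 unit or more, 23 genes (0.778%) were higher and 50 (1.69%) lower in HFD. The largest positive ratio was that of Cxcr3, the receptor for interferon-induced chemokines, with 137 CPM in HFD and 11.8 CPM in CD, a log2 ratio of 3.54 with a counting interval of 2.55 to 4.65. A Cxcr3 UMI was present in 13 of 53 HFD barcodes, from 12 clonotypes, and in 9 of 196 CD barcodes, from 9. Thinned to 2000 UMIs, the expected shares were 15.3% of 52 barcodes in HFD and 1.84% of 186 in CD, at median depths of 4940 and 4245 UMIs. Among IGHM barcodes, Cxcr3 was at 7.45 CPM in HFD and 5.43 CPM in CD, with a UMI in 2.46% and 1.79% of barcodes. Among IGHD barcodes 1 of 71 in HFD and 2 of 111 in CD had a Cxcr3 UMI, at medians of 3431 and 3305 UMIs.

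Cxcr3 UMIs in HFD were found in every switched isotype. It was present in 6 of 27 IGHG2B, 2 of 7 IGHG1, 2 of 5 IGHG2C, 2 of 10 IGHG3 and 1 of 4 IGHA barcodes, and the 2 IGHG3 barcodes were among the mixed ones. Cxcr3 is also a T cell gene, and without barcodes over the T, NK and macrophage limits it was at 134 CPM in HFD, in 11 of 51 barcodes, and at 10.5 CPM in CD, in 7 of 183. The called difference of Cxcr3 between switched and IGHM barcodes (2.81) combined a log2 difference of 3.92 in HFD with one of 0.93 in CD. Tbx21, which encodes T-bet, the transcription factor that induces Cxcr3 and switching to IgG2c, had a UMI in 8 of 53 HFD barcodes and 4 of 196 CD barcodes, against 0.975% and 0.826% of IGHM barcodes. Thinned to 2000 UMIs, the expected Tbx21 share was 4.98% for switched barcodes of HFD, against 0.349% for IGHM barcodes of HFD.

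Other positive ratios were smaller. Lmna, the nuclear lamin A and C gene, was at 300.5 CPM in HFD and 97.4 CPM in CD in switched barcodes (1.63, interval 1.19 to 2.06), and at 154 and 87.2 CPM in IGHM barcodes (0.82). Fscn1, an actin-bundling protein gene, was at 88.8 CPM in HFD and 29.97 CPM in CD in switched barcodes (1.57), with UMIs in 10 of 53 and 17 of 196 barcodes, while in IGHM barcodes it was at 1.79 and 3.75 CPM (-1.07). Epb41 (1.46), Hnrnpa0 (1.45), D130009I18Rik (1.38), Pde3b (1.31) and Gm56536 (1.28) followed, with IGHM ratios of -0.18 to 0.58.

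Several of the genes lower in HFD were also lower in IgM barcodes. Cxcl13, a B cell chemokine made by peritoneal macrophages, was at 6.83 CPM in HFD, from 2 UMIs, and at 179 CPM in CD in switched barcodes (-4.71, interval -7.77 to -2.83), and at 16.7 and 243 CPM in IGHM barcodes (-3.86). Apoe was at 164 and 798 CPM in switched barcodes (-2.28) and at 287 and 941 CPM in IGHM barcodes (-1.71). Saa3 (-1.72), Alox15 (-1.74) and C1qa (-1.70), all expressed by macrophages, had IGHM ratios of -2.51, -0.85 and -1.14. The macrophage list as a whole had a log2 ratio of -1.06 in switched barcodes. Without mixed barcodes the ratios of Apoe, Saa3 and Alox15 in switched barcodes were -1.13, -0.70 and -0.23, while that of Cxcl13 was -3.13. Alox15 is one of the markers whose sum set the limit for mixed barcodes. Ccdc69 (-1.85), Klhl24 (-1.71) and Oxct1 (-1.65), the last an enzyme of ketone body use, had IGHM ratios of -0.17, -0.12 and -0.19.

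**Figure D5:**
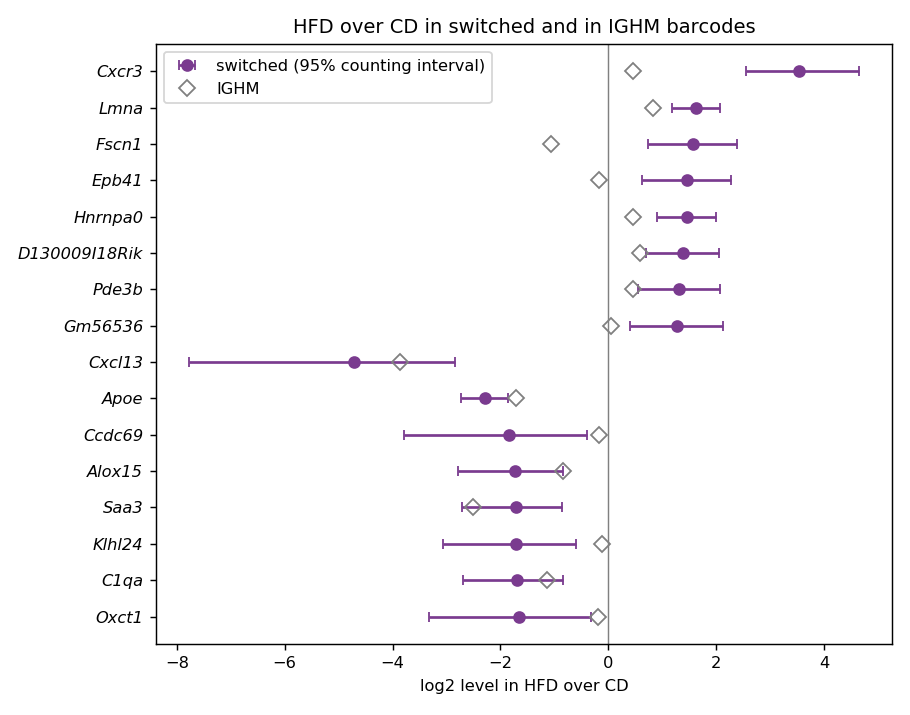
Log2 level in HFD over CD for the 8 genes with the largest positive and the 8 with the largest negative ratio in switched barcodes. Circles with bars are switched barcodes with 95% counting intervals and open diamonds IGHM barcodes; Cxcr3 stands at 3.54 in switched and 0.46 in IGHM barcodes.

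Among the lists, the summed B1 markers were higher in HFD switched barcodes, by 0.60 on the log2 scale (0.52 to 0.69), as the same list was in HFD IGHM barcodes, at 7193 CPM in HFD and 4688 CPM in CD. The memory list was higher by 0.42 (0.33 to 0.51), and in IGHM barcodes it was at 4026 CPM in HFD and 3097 CPM in CD. The atypical (-0.42, interval -0.58 to -0.26), plasma cell (-0.37, -0.50 to -0.25) and heat shock lists (-0.26, -0.37 to -0.15) had negative ratios. The atypical list was at 1284 CPM in HFD and 1716 CPM in CD, and its member Apoe, at 164 and 798 CPM, had the larger gap. In IGHM barcodes of HFD and CD the atypical list was at 1294 and 1927 CPM and the heat shock list at 3038 and 3838 CPM. The plasma cell list was at 3031 and 2833 CPM there. Its median per switched barcode was 2096 CPM in HFD and 1848 CPM in CD, the opposite order to its sums. The summed B2 list had a ratio of -0.08 with an interval that included 0 (-0.17 to 0.01).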

How the data were processed

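Peritoneal CD45+ cells were profiled as 1 expression and 1 receptor library for each of 2 diets. The deposited matrices hold UMI counts per gene and barcode without normalization, and the deposited contig tables hold UMI counts per contig with V, J and constant gene calls. Cell Ranger is given as version 6.0.1 in the submitters' processing notes, beside Seurat 4.3.0 and build mm39, and as version 8.0.1 in the file headers. The labels name a 3′ kit also for the receptor libraries, so which transcript end was counted is not settled.

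Barcodes under 300 detected genes or over 10% mitochondrial UMIs were dropped, and the others were joined to receptors of the same diet. No doublet caller was run; the rule of 1 heavy and 1 light contig leaves out barcodes with a second heavy chain, and barcodes with RNA of another lineage were left out as an alternative. The 4 sums of switched and IGHM barcodes were tested with edgeR 4.0.16 at a mean of at least 20 CPM (5280 genes), with DESeq2 1.42.0 as an alternative. On simulated counts for this comparison (dispersion 0.05), 27.0% of 2-fold and 97.6% of 4-fold changes were recovered. Shares carry exact binomial intervals and diet ratios exact Poisson intervals, which cover counting error only. The germline proxy of a V gene was the most frequent sequence among IGHM and IGHD barcodes, seen in at least 3 clonotypes.

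Named genes were, of those at an adjusted p below 0.05 with the same sign in both libraries and a UMI in at least 10% of barcodes of the higher class in each, the 15 most positive and 10 most negative; for diet, the 8 largest ratios each way. Receptor, mitochondrial, ribosomal protein and sex-linked marker genes were left out. In the lists, the rule named up to 4 members of smallest p; further members past the threshold, and Tbx21, Bcl6, Nt5e and other single genes, were chosen after their values were seen. Members and lists were chosen with earlier results of these data known. Results for some genes are not reported here.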

Additional observations from a re-analysis of the deposited data

Results flagged for a closer look

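Some barcodes outside the rule held a switched and an IGHM heavy contig together, 4 in HFD and 41 in CD. They came to attention because they carry a switched contig in data that no comparison used. In all, 58 barcodes in HFD and 310 in CD had a switched contig, of which 4 in HFD and 68 in CD fell outside the rule.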

How the results depend on the processing

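The 54 switched barcodes of HFD and the single library per diet limit every value. In CD the switched share was 2.78% with heavy contigs of at least 5 UMIs and 4.44% by clonotype, the IGHG1 share 8.18% with at least 5 UMIs, and clone sharing 11.6% by heavy chain, 20.2% by lineage and 18.2% by deposited clonotype. The IGHM share with differences in HFD was 3.11% (heavy) and 2.52% (light) by clonotype. Against 153 higher and 262 lower genes, there were 40 and 103 after thinning to 2000 UMIs, 57 and 126 against IGHM barcodes with heavy differences, and 42 and 97 with DESeq2. No replicate block, that is, without the library term that pairs the sums, left 13 and 21. Leaving out barcodes with 2 or more UMIs of another lineage kept 1 switched barcode in HFD and 13 in CD and called 0 and 0 genes with edgeR, with 30 at an unadjusted p below 0.05. There Lax1 was at -0.031, Ahnak2 at 0.22 and Pou2af2 at 0.50, and the B1 and B2 medians at -0.92 and 0.14. By 1 barcode per clonotype these medians were -0.21 and -0.21, without PtC-type receptors -0.15 and -0.17, and against IGHM barcodes with heavy differences -0.23 and 0.20. The diet ratios past 1 log2 unit numbered 9 higher and 24 lower after thinning, and 4 and 14 without barcodes with 2 or more UMIs of another lineage. The cause of these shifts was not tested. Of the 415 called genes, 287 were also called without barcodes over the share limits, 286 of them in the same direction. The share limits, the deposited clonotypes and the comparison with mutated IGHM barcodes were chosen after seeing the data.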
